A study of Mus musculus with 7 samples.

Results

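The genes described here are 29 interferon-induced genes, taken by symbol from a fixed list and all present in the feature table of 32285 mouse genes. They are Isg15, Ifit1, Ifit2, Ifit3, Irf7, Stat2, Oasl2, Oas1a, Rsad2, Usp18, Ifi44, Bst2, Ifi27l2a, Rtp4, Xaf1, Zbp1, Ifi47, Irgm1, Igtp, Gbp2, Gbp3, Gbp7, Psmb8, Psmb9, Iigp1, Trim30a, Lgals3bp, Parp14 and Ddx58. They were followed in single bone marrow cells of mice sorted as LSK (lineage-negative, Sca-1 positive, c-Kit positive), the fraction that holds blood stem cells and early progenitors. The data comprise 3 libraries labelled B4galt1 KO (genotype 129S1/C57Bl/6, B4-/-, a full knockout of the galactosyltransferase gene B4galt1) and 4 libraries labelled WT (129S1/C57Bl/6). Both groups share the mixed strain background, and no treatment is named. The labels number the libraries as replicates without saying that each came from a separate mouse, and give no age, so p-values measure the spread between libraries only.

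Type I interferons bind the receptor Ifnar1/Ifnar2, and interferon gamma binds Ifngr1/Ifngr2. Jak kinases at the receptors then pass the signal to transcription factors, which act through the interferon-stimulated response element (ISRE) of genes such as Isg15 and the Ifit family and through the gamma-activated site (GAS) of genes such as the guanylate-binding proteins. In blood stem cells, an intrinsic level of such antiviral transcripts and the response to interferon during infection are both well known.

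Promoter windows, 250 bases before to 50 bases after the start of transcription, were at hand in RefSeq (GRCm38.p6) for 23 of the 29 genes. The ISRE core, searched on both strands as GAAA, any 2 bases and GAAA again, was in the windows of 14 of the 23 genes (60.9%), against 3.44% of 32851 windows of the same length over the genome. The GAS core, searched on both strands as TTCNNNGAA, was in 6 of the 23 (26.1%), against 8.3% of all windows; the patterns were counted separately even where they overlapped. A match describes letters and is not evidence of binding. The stretches of 4 genes that the results below turn on, or that show how the element repeats, are given 5′ to 3′ along the transcribed strand, with ISRE matches in capitals. Isg15 (chr4:156200850-156200909, minus strand) holds 3 overlapping matches and Ifit1 (chr19:34640779-34640838, plus strand) holds 2. Gbp3 (chr3:142559980-142560025, plus strand) and Oas1a (chr5:120907526-120907564, minus strand) hold 2 overlapping matches each. All lie upstream of the annotated gene.
Isg15: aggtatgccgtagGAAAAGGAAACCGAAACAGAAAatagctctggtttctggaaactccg
Ifit1: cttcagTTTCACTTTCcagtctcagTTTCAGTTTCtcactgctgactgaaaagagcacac
Gbp3: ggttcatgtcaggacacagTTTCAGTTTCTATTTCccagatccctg
Oas1a: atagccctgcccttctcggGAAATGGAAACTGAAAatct

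After a filter on cells (at least 1000 UMIs, that is counted RNA molecules, at least 500 genes and at most 10% mitochondrial UMIs), 24430 cells stayed, from 1172 to 8862 per library, with a median of 8046 to 11083.5 UMIs per cell. Deposited totals ran from 14970791 to 89747946 UMIs per library. The cell barcodes came from 2 different sets of sequences, called lists A (KO replicates 1 and 2, WT replicates 1, 2 and 3) and B (KO replicate 3, WT replicate 4). Between 32.4% and 49.9% of list A barcodes passed the filter, against 98.3% and 96.2% in list B, and ribosomal genes took 13.7% to 20.8% of UMIs in list A and 30.0% and 30.2% in list B. Libraries shared between 0 and 88 barcodes per pair. Summed markers of red cells stood at 108.54 CPM (UMIs scaled to the library total) in WT replicate 4 and 17.9 in KO replicate 3, against 0.637 to 2.60 in list A, and those of macrophages at 1.10 to 10.8. The sum of Cdh5, Kdr and Emcn, taken as endothelial markers, was lower in KO libraries without overlap, at 7.69, 15.4 and 21.03 CPM against 23.1, 30.5, 35.3 and 35.4. Which cells gave these transcripts was not tested. Summed markers of plasma cells were highest in WT replicate 4, at 46.9. The part of these markers in the results was not tested. B4galt1 itself (chr4:40804602-40854005, minus strand) stood at 53.2, 53.0 and 31.8 CPM in KO replicates 1 to 3 and at 54.1, 60.5, 51.9 and 39.5 in WT replicates 1 to 4, with overlapping groups. Which stretch of B4galt1 the knockout lacks is not stated in the sources used here, so counts of 3′ ends do not check the label, and the groups are named by label throughout.

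Each of the 29 genes had at least 1 UMI in every library. Levels below are TMM-normalized CPM (TMM is edgeR's scaling between libraries) over all kept cells, not corrected for transcript length, so levels of different genes are not ranked. Psmb8 and Psmb9, neighbouring genes on chromosome 17 that encode subunits of the immunoproteasome, gave between 34.9% and 51.1% of all UMIs of the list in a library. Psmb8 stood at 364, 276 and 597 CPM in KO replicates 1 to 3 and at 325, 173, 224 and 505 in WT replicates 1 to 4. Psmb9 stood at 154, 148 and 248 against 167, 106, 131 and 255. In both, the list B library was the highest of its group and the groups overlapped.

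The antiviral membrane protein Bst2 (tetherin) had the same shape, at 54.5, 47.6 and 124.8 CPM in KO libraries and 49.1, 25.2, 35.4 and 122.4 in WT libraries. Rtp4, a negative regulator of the interferon response, stood at 11.8, 10.4 and 48.3 against 22.5, 15.4, 19.2 and 59.0. The immunity-related GTPase Irgm1 stood at 16.9, 18.8 and 45.5 against 24.0, 17.2, 19.96 and 42.9. In these 3 genes both list B libraries lay above every list A library. Ifi47, another GTPase of that family, was alike, with 40.7, 39.2 and 71.3 against 38.5, 35.6, 33.7 and 68.2. The guanylate-binding protein Gbp7 went the other way between lists, at 52.5, 46.2 and 45.1 against 55.7, 51.0, 59.8 and 42.3. Trim30a, a tripartite-motif protein, stood at 71.7, 77.6 and 62.8 against 86.6, 76.0, 78.7 and 66.3, again lowest in list B. Lgals3bp, a secreted galectin ligand, differed less between libraries, at 63.0, 52.5 and 69.2 against 53.1, 47.6, 52.2 and 61.1. What sets the lists apart was not tested. Since each list holds both labels, it entered every label comparison as a covariate. Ifit3 had the fewest UMIs of the list, from 1 in KO replicate 2 to 110 in KO replicate 3.

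**Figure D1:**
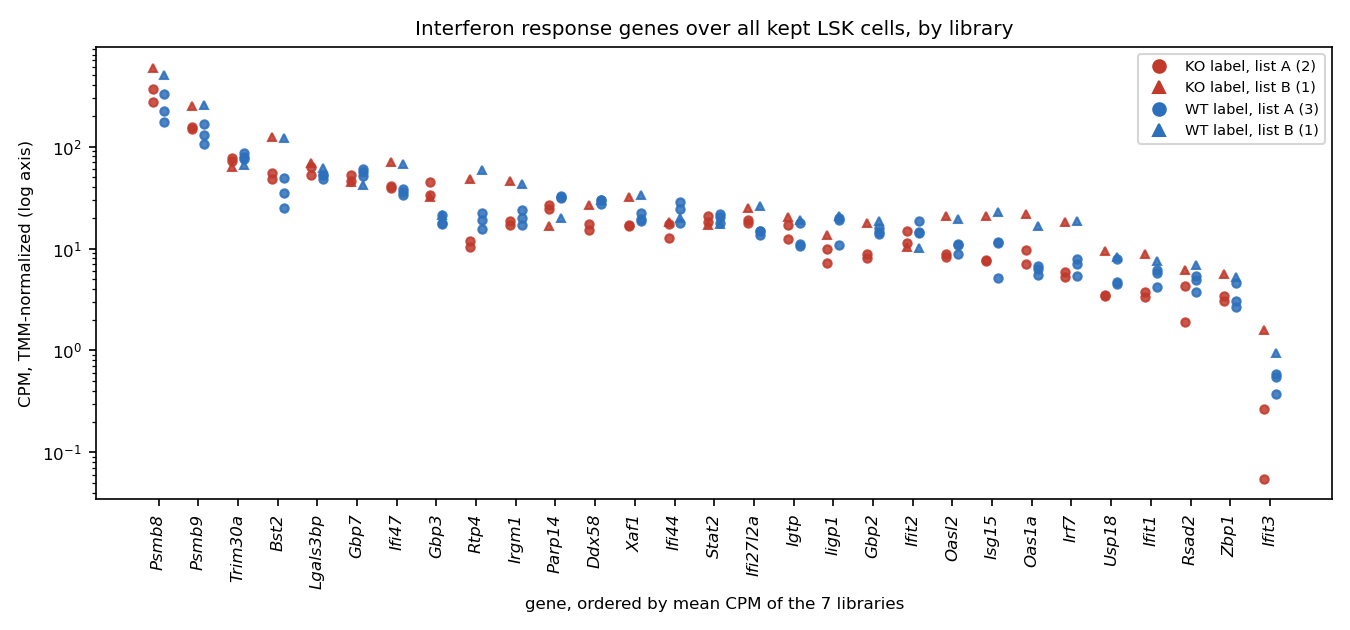
Level of each of the 29 interferon response genes over all kept cells, as TMM-normalized CPM on a log axis, with 1 point per library (red KO label, blue WT label; circles barcode list A, triangles list B). For Psmb8, Bst2, Rtp4 and Irgm1 the triangles sit at the top, and Gbp3 and Ddx58 are the genes whose red and blue points do not overlap.

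The first comparison asked whether the list differed between KO-labelled and WT-labelled LSK cells as a whole. Gbp3 was higher in KO-labelled libraries, and no other gene of the list passed the test. Gbp3 encodes a guanylate-binding GTPase (chr3:142560026-142573209, plus strand). It stood at 33.5, 45.2 and 31.8 CPM in KO libraries and at 21.3, 17.5, 17.8 and 21.5 in WT libraries. Every KO library lay above every WT library. The log2 fold change was 0.91 ± 0.15 (SE, 3 against 4 libraries, edgeR quasi-likelihood F test with Benjamini-Hochberg adjustment over all genes, adjusted p = 0.0299). In this comparison 1.07% of all 15149 genes tested were called, and 1 of 29 genes of the list. The Gbp3 call was lost without WT replicate 1 (adjusted p = 0.0681), WT replicate 2 (0.0544) or WT replicate 3 (0.111), and without the barcode list covariate (0.675). Of the list, 3 genes were called without KO replicate 3 or without WT replicate 4, none without WT replicate 1 or WT replicate 3, and 1 (Iigp1) without WT replicate 2. The number of all genes called in each of these fits is not given here, so a moved count is not a result about the list. Within list A alone the Gbp3 log2 fold change was 1.04 (adjusted p = 0.0202), and between the 2 list B libraries the log2 ratio was 0.56.

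The next genes by p all had negative log2 fold changes and missed the threshold by edgeR. DESeq2 called 3 of them, Ddx58 (adjusted p = 0.0178), Iigp1 (0.0155) and Rtp4 (0.0285), among 864 of all genes, and edgeR on list A alone called Ddx58 (0.0256) and Gbp2 (0.045). Ddx58 encodes the viral RNA sensor RIG-I. It stood at 17.2, 15.2 and 26.8 CPM in KO libraries and at 27.6, 29.8, 30.2 and 29.7 in WT libraries. The groups did not overlap, though KO replicate 3 came within 1 CPM of the lowest WT library (log2 fold change -0.63, adjusted p = 0.088). Ddx58 lies on chromosome 4, 565 kb from B4galt1. Without KO replicate 3 its log2 fold change was -0.86 (adjusted p = 0.0284) and without WT replicate 4 it was also -0.86 (0.0282), so the call depended on the list B libraries, between which the log2 ratio was -0.15. Groups did not overlap in 2 of the 29 genes (6.9%), Gbp3 and Ddx58, against 5.72% of all genes tested.

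Iigp1, an immunity-related GTPase induced by interferon gamma, stood at 7.27, 9.85 and 13.5 CPM in KO libraries and at 19.2, 10.9, 19.9 and 20.7 in WT libraries. WT replicate 2 lay among the KO libraries (log2 fold change -0.86, adjusted p = 0.0986, and 0.0454 without WT replicate 2). Rtp4, given above, had a log2 fold change of -0.62 (adjusted p = 0.106). Gbp2, of the same gene family and also on chromosome 3, stood at 8.87, 8.02 and 17.8 against 14.5, 14.02, 15.9 and 18.6, with 1 KO library among the WT libraries (log2 fold change -0.57, adjusted p = 0.128, and 0.045 without KO replicate 3 or 0.0448 without WT replicate 4). Over the list, 9 genes had a positive and 20 a negative log2 fold change. The list's median was -0.16, against 0.0093 over all genes tested, and 8 of the 29 had an unadjusted p below 0.05, as did 2861 of the 15149 genes tested. With the replicate number as a block 8 genes of the list were called, and 2699 of all 15876 genes tested in that fit, which has 1 residual degree of freedom.

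These differences in whole libraries went along with a different makeup of cells. Cells were put into states by marker genes that are not on the list. A primary granule gate (Elane, Mpo, Prtn3, Ctsg, the granule genes of granulocyte-monocyte progenitors) held 41.9%, 38.8% and 22.2% of kept cells in KO libraries and 11.8%, 9.73%, 6.47% and 7.28% in WT libraries. When the sums were made without this gate and the plasmacytoid, MHC class II high, T/NK, neutrophil and monocyte-primed gates, none of the 29 genes was called. How many of all genes were called in that fit is not given here, so this count is not a result about the list. Ddx58 then had a log2 fold change of 0.03 and Rtp4 of 0.04, both on the other side of 0, Iigp1 of -0.05 and Gbp2 of -0.02. Gbp3 kept its direction at 0.35 (adjusted p = 0.448). The median size of the log2 fold change over the list was 0.23 in all kept cells and 0.112 without these gates. In a sum over a library, a change in the number of cells of a state and a change within them cannot be told apart.

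Within 6 gates that held at least 20 cells in every library, none of the genes passed the label test by edgeR as fitted without a replicate block. These were the non-cycling stem cell gate and the cycling stem cell gate (genes such as Procr, Hlf and Mecom), the Flt3 multipotent gate, the Dntt positive gate of lymphoid-primed cells, the monocyte-primed gate and the primary granule gate. By edgeR the count was 0 of 28 in the non-cycling stem gate (0.144% of all genes called), 0 of 28 in the cycling stem gate (0.0926%), 0 of 23 in the Flt3 gate (0.225%), 0 of 27 in the Dntt gate (0.129%), 0 of 22 in the monocyte-primed gate (0.0521%) and 0 of 28 in the primary granule gate (0.0292%). Genes with an unadjusted p below 0.05 numbered 1, 2, 1, 6, 2 and 4 in the same order. Over all genes tested they were 593 of 13210, 531 of 11880, 221 of 7991, 630 of 11605, 410 of 9589 and 1027 of 13715. DESeq2 called 1 gene in the primary granule gate, Gbp3, and none in the other 5 gates. Its calls over all genes in these gates are not given here, so these counts are not results about the list. With the replicate number as a block, 5 genes were called in the primary granule gate (905 of all 14583 genes tested) and 1 in the Dntt gate (195 of 12263), again with 1 residual degree of freedom.

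Gbp3 had the smallest p within the primary granule gate. Its plain CPM there was 36.6, 57.0 and 37.0 in KO libraries and 27.4, 24.3, 21.5 and 23.2 in WT libraries, with no overlap (log2 fold change 0.89 ± 0.17, SE, adjusted p = 0.165 by edgeR and 0.0113 by DESeq2). In the non-cycling stem gate its log2 fold change was 0.35. Oas1a, a sensor that makes 2'-5' oligoadenylate, had a positive log2 fold change in all 6 gates, from 0.38 in the cycling stem gate to 1.54 in the monocyte-primed gate, with an adjusted p (edgeR) of 0.606 or more in each. In the Dntt gate 23 of the 27 genes tested had a positive log2 fold change, with a median of 0.30 against -0.013 over all genes, and none was called.

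**Figure D2:**
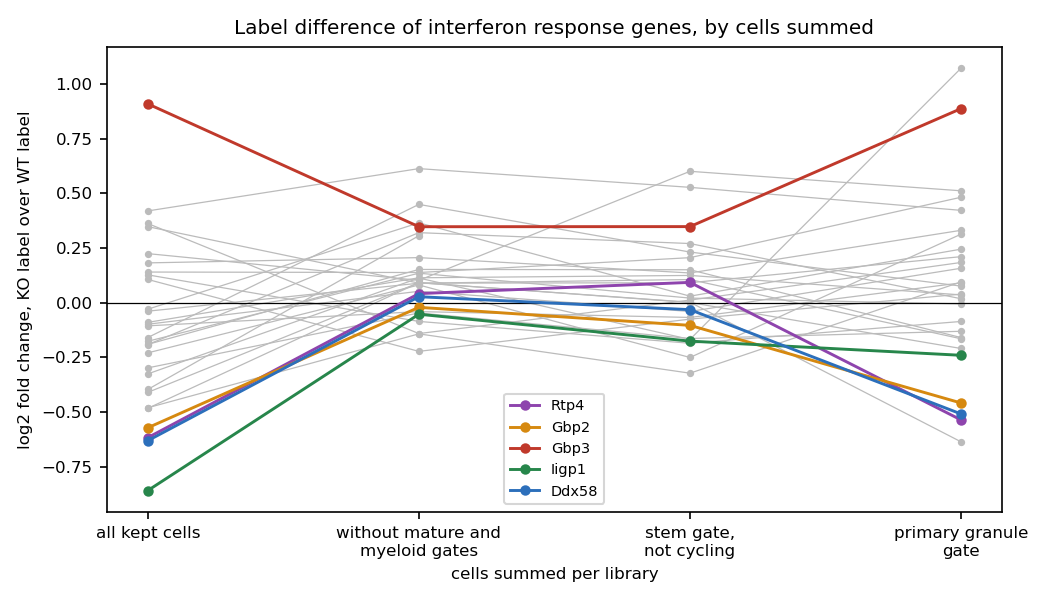
Log2 fold change of KO label over WT label for the 29 genes, from sums over all kept cells, over cells outside the mature and myeloid gates, and over 2 single gates; lines join 1 gene, and 5 genes are coloured. Ddx58, Rtp4, Iigp1 and Gbp2 lie between -0.57 and -0.86 on the left and near 0 once mature and myeloid gates are left out, while Gbp3 falls from 0.91 to 0.35 and is 0.89 in the primary granule gate.

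The second comparison asked how the genes differed between cell states within a library. Among the 6 tested gates, the widest difference was between the non-cycling stem gate and the primary granule gate, each set against other kept cells. Of the 28 genes tested (Ifit3 was too low), 20 were higher and 6 lower in the non-cycling stem gate than in other kept cells, where 29.5% of all genes were called higher and 30.1% lower. In the primary granule gate 5 were higher and 22 lower, where 31% of all genes were called higher and 31.2% lower. The same 20 genes were higher in the stem gate and lower in the granule gate, among them Ifit1, Isg15, Oasl2, Rsad2, Ddx58, Stat2 and Iigp1. Bst2, Ifi47, Gbp3, Psmb8 and Psmb9 went the opposite way in both, and Ifi27l2a was lower in both. Lgals3bp was called in neither gate, and Ifit2 was lower in the granule gate only. The list's median log2 fold change was 0.45 in the stem gate, against 0.0074 over all genes, and -0.63 in the granule gate, against -0.023.

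Each gate is part of the other cells of the other, so the 2 profiles are not independent. With the mature and myeloid gates left out of the other cells, 17 genes stayed higher in the non-cycling stem gate, all of them among the 20, and 5 were lower, where 27.5% and 28.5% of all genes were called. With the non-cycling stem gate left out of the other cells, 5 genes stayed higher and 19 lower in the granule gate, all as before, where 27.6% and 25.9% of all genes were called. The gates also differed in depth, with a median of 6797 UMIs per cell in the non-cycling stem gate and 17746 in the granule gate. TMM scaling moved the stem gate by 0.132 and the granule gate by -0.152 (log2, gate minus other cells), and no called gene had the opposite sign in plain CPM. Of the check genes that mark stem cells, 5 of 5 were higher in the non-cycling stem gate in every library, as were 3 of 4 for the granule gate.

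**Figure D3:**
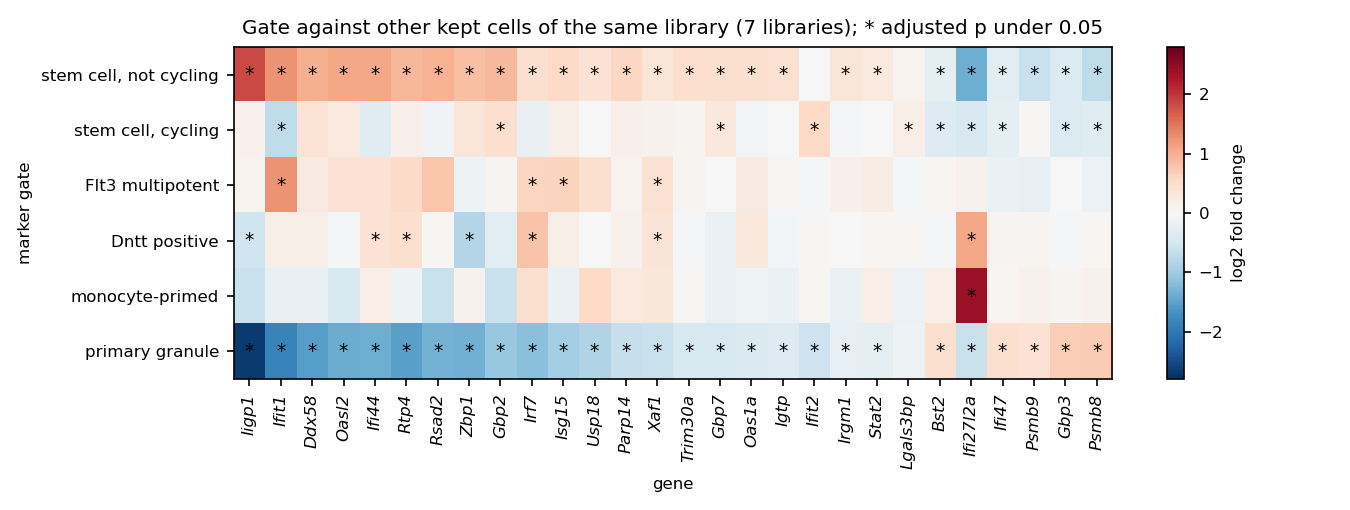
Log2 fold change of each gene in a marker gate over all other kept cells of the same library (red higher, blue lower, scale at the right), with stars where the adjusted p was below 0.05; 28 genes, 7 libraries. The top row (non-cycling stem gate) and the bottom row (primary granule gate) have stars on opposite colours for 25 genes, and Ifi27l2a is blue with a star in both.

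Values in plain CPM are given in the order KO replicates 1 to 3, then WT replicates 1 to 4. Ifit1 encodes a protein that binds foreign RNA caps. It stood at 8.38, 7.72, 13.4, 13.4, 9.53, 10.9 and 11.2 CPM in the non-cycling stem gate, against 2.54, 3.31, 5.87, 3.72, 3.32, 4.61 and 5.01 in all other cells. The gate was higher in 7 of 7 libraries (log2 fold change 1.25 ± 0.11, SE, adjusted p = 3.4e-06). In the granule gate Ifit1 stood at 1.58, 2.65, 2.65, 1.74, 0.822, 0 and 1.397 CPM, lower than other cells in 7 of 7 libraries (log2 fold change -1.88, adjusted p = 6.77e-06).

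Iigp1 had the widest range between the gates. In the non-cycling stem gate it stood at 35.5, 35.7, 24.6, 45.1, 30.9, 35.3 and 32.8 CPM, against 3.22, 6.08, 7.83, 12.6, 6.64, 15.2 and 12.96 in other cells. No library of the gate overlapped with any of the other-cell values (log2 fold change 1.85 ± 0.21, SE, adjusted p = 2.62e-05). KO and WT libraries lay side by side within the gate, KO replicate 3 being the lowest and WT replicate 1 the highest. In the granule gate Iigp1 fell to between 1.04 and 4.54 CPM (log2 fold change -2.68, adjusted p = 1.14e-05).

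Trim30a rose less but as regularly. It stood at 114, 121, 66.1, 119, 126, 110 and 72.5 CPM in the non-cycling stem gate and at 63.1, 74.7, 50.6, 81.7, 74.6, 74.6 and 53.4 in other cells, higher in 7 of 7 libraries (log2 fold change 0.47, adjusted p = 3.34e-05). Oasl2, an oligoadenylate synthetase-like protein, had between 13.98 and 27.6 CPM in the stem gate and between 2.56 and 9.34 CPM in the granule gate, with no overlap (granule gate, log2 fold change -1.39, adjusted p = 1.73e-06). Irf7 is the transcription factor that amplifies the type I response. It had between 2.47 and 8.40 CPM in the granule gate and between 6.93 and 19.2 CPM in other cells, lower in 7 of 7 libraries (log2 fold change -1.18, adjusted p = 1.6e-06).

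The antigen-processing genes went the other way. Psmb8 stood at 402, 342, 625, 423, 294, 338 and 536 CPM in the granule gate and at 243, 206, 459, 315, 174, 232 and 433 in other cells, higher in 7 of 7 libraries (log2 fold change 0.71 ± 0.07, SE, adjusted p = 1.87e-06). In the non-cycling stem gate it was lower in 7 of 7 libraries, at 143 to 412 CPM against 214 to 545 (log2 fold change -0.70, adjusted p = 0.000134). Psmb9 fell there too, at 92.7 to 193 CPM against 130 to 237 (log2 fold change -0.63, adjusted p = 5.37e-05). Across libraries these ranges overlapped, since list B libraries were high in every gate, while within each library the direction was the same.

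Gbp3 stood in the granule gate at the values given above, against 23.4, 32.2, 22.6, 20.8, 18.9, 19.2 and 18.4 CPM in other cells, higher in 7 of 7 libraries (log2 fold change 0.69, adjusted p = 1.53e-05). That gate was larger in KO-labelled libraries, and Ddx58, Iigp1, Rtp4 and Gbp2 were lower in it than in other cells. By label within the gate, the log2 fold changes of these genes were -0.51, -0.24, -0.54 and -0.46. None of them was called there by edgeR without a replicate block. The part of the gate's size in the label differences was not tested. Ifi47 was higher in the granule gate in 7 of 7 libraries, at 42.1 to 64.6 CPM against 33.3 to 59.9 (log2 fold change 0.46, adjusted p = 3.72e-05).

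Ifi27l2a, a small mitochondrial protein induced by interferon, had a profile of its own. In the monocyte-primed gate (Csf1r, Ly86, Ms4a6c, F13a1, Ccr2) it stood at 139, 86.7, 72.9, 79.0, 107, 104 and 48.4 CPM, against 13.3, 16.5, 19.8, 14.1, 14.3, 13 and 22.5 in other cells. Every gate value lay above every other-cell value (log2 fold change 2.39 ± 0.30, SE, adjusted p = 0.00272). It was the one gene of the list called in that gate, where 4.24% of all genes were called higher and 3.51% lower, and it stayed the one gene called when the non-cycling stem gate was left out of the other cells (3.53% and 2.52%). Without KO replicate 1, 2 genes were called, in a fit whose calls over all genes are not given here. In the Dntt gate Ifi27l2a stood at 21.7 to 54.2 CPM against 12.8 to 19.99, again without overlap (log2 fold change 1.08, adjusted p = 1.02e-06). In the non-cycling stem gate it stood at 3.76 to 15.3 CPM, lower than other cells in 7 of 7 libraries (log2 fold change -1.37, adjusted p = 0.000102). Only 2 of 4 check genes of the monocyte-primed gate were higher in every library, and the gate held as few as 23 cells in a library.

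In the Dntt gate 5 genes were higher and 2 lower than in other cells, where 8.16% of all genes were called higher and 7.01% lower. Irf7 stood at 20.03, 9.98, 28.8, 10.5, 8.55, 9.68 and 22.9 CPM against 5.34, 5.38, 14.4, 7.72, 5.44, 7.20 and 15.2, higher in 7 of 7 libraries (log2 fold change 0.81, adjusted p = 0.000617). Xaf1, a pro-apoptotic protein, was higher in 6 of 7 libraries (log2 fold change 0.37, adjusted p = 0.00622). Ifi44 and Rtp4 were the other genes called higher. Zbp1, a sensor of Z-form nucleic acids, was lower in 7 of 7 libraries, at 1.17 to 3.45 CPM against 3.20 to 5.69 (log2 fold change -0.82, adjusted p = 0.0143).

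Iigp1 was lower in the Dntt gate in 6 of 7 libraries (log2 fold change -0.56, adjusted p = 0.0264), a call lost without KO replicate 3 (0.0826) and without WT replicate 1 (0.0895), WT replicate 2 (0.0672) or WT replicate 4 (0.209). The number of genes called in the Dntt gate fell from 7 to 4 without KO replicate 3 or WT replicate 4. Calls over all genes in these fits are not given here, so the fall is not a result about the list. With mature and myeloid gates left out of the other cells 5 genes were higher and 6 lower, where 15.9% and 15.2% of all genes were called. Irf7, Ifi27l2a, Zbp1 and Iigp1 were called the same way in both, and the Xaf1 (0.0622), Ifi44 and Rtp4 calls were lost.

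Calls in the other 2 gates were less steady. In the cycling stem gate 4 genes were higher and 6 lower, where 11.3% of all genes were called higher and 12.1% lower. Ifit2 was higher in 7 of 7 libraries, at 11.3 to 30.9 CPM against 8.39 to 18.2 (log2 fold change 0.57, adjusted p = 0.00447). Bst2 was lower in 7 of 7, at 19.7 to 97.2 CPM against 31.7 to 110.1, highest in the list B libraries (log2 fold change -0.37, adjusted p = 0.0062). The Gbp7 (0.29, adjusted p = 0.0128), Gbp2 (0.47, 0.0157), Ifi47 (-0.25, 0.0291) and Psmb8 (-0.33, 0.0348) calls were lost when mature and myeloid gates were left out of the other cells, and Psmb8 was then at 0.05. In that comparison 2 genes were higher and 9 lower, where 18.2% and 21.2% of all genes were called. The count of 10 genes fell to 4 without KO replicate 2. Without KO replicate 3, WT replicate 3 or WT replicate 4 it was 6. It was 5 without WT replicate 2 and 3 without WT replicate 1. Calls over all genes in these fits are not given here, so the fall is not a result about the list. Of the stem check genes, 1 of 5 was higher in this gate in every library.

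In the Flt3 gate 4 genes were higher, Isg15, Ifit1, Xaf1 and Irf7, where 2.32% of all genes were called higher and 4.35% lower. Of the check genes of this gate, 1 of 3 was higher in every library. Isg15, a ubiquitin-like modifier, stood at 9.69, 19.2, 29.6, 23.5, 8.50, 8.44 and 29.9 CPM against 7.27, 7.97, 17.8, 11.9, 5.79, 12.5 and 19.5, higher in 6 of 7 libraries (log2 fold change 0.62, adjusted p = 0.0147). Ifit1 was uneven between libraries, at 3.63, 9.61, 21.8, 0, 51.0, 6.33 and 12.9 CPM (log2 fold change 1.27, adjusted p = 0.0355), with the highest value in WT replicate 2, whose gate held 32 cells, and none in WT replicate 1, whose gate held 28. Xaf1 stood at 25.3 to 36.7 CPM and was higher in 7 of 7 libraries (log2 fold change 0.42, adjusted p = 0.0377). DESeq2 called none of the 4, and none was called without KO replicate 3 and 1 without WT replicate 4. Calls over all genes in these fits are not given here, so these counts are not results about the list. The Ifit1 call was also lost without KO replicate 2 (adjusted p = 0.103), and the Xaf1 call without KO replicate 1 (0.0612), KO replicate 2 (0.0565) or WT replicate 3 (0.0558). With mature and myeloid gates left out of the other cells 2 genes were higher, where 4.05% of all genes were called higher and 5.58% lower. With gates drawn on cells thinned to 3000 UMIs, the log2 fold change was 0.01 for Isg15 and 0.02 for Ifit1.

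**Figure D4:**
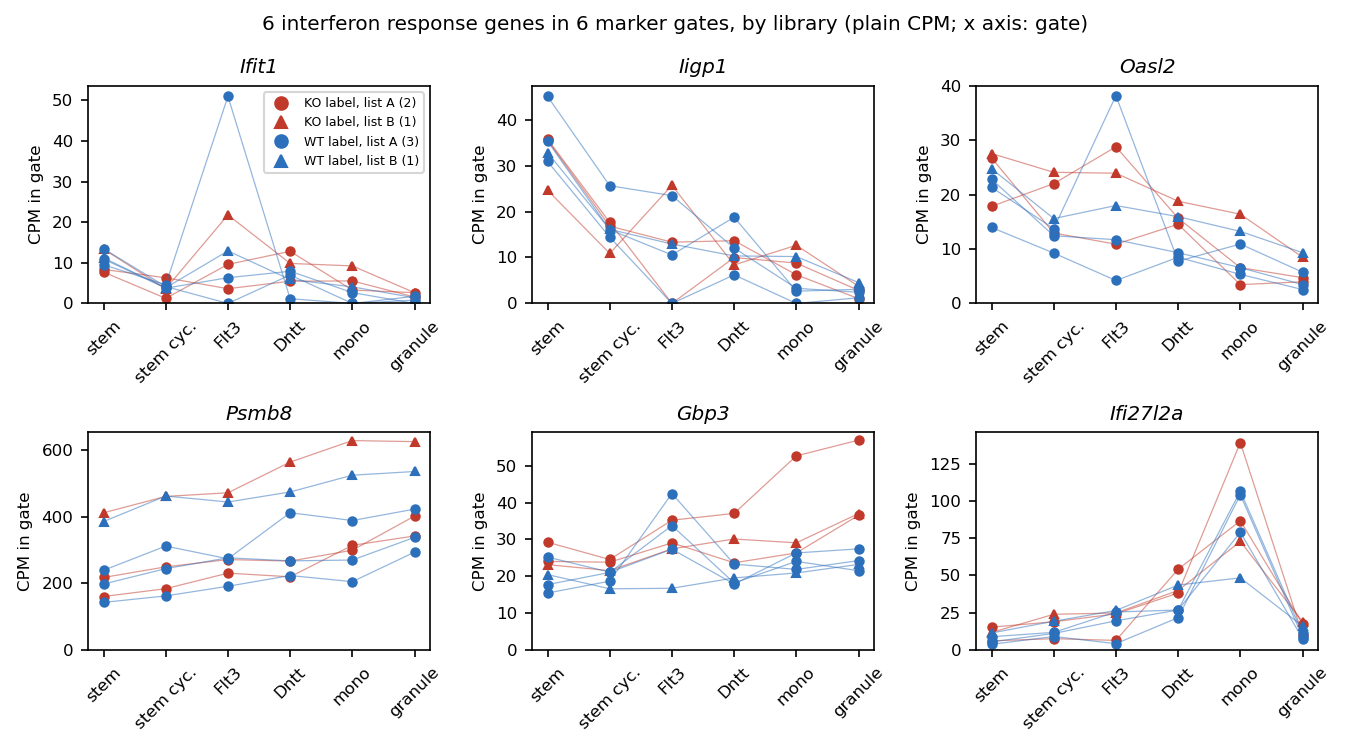
Plain CPM of 6 genes in 6 marker gates, from the non-cycling stem gate at the left to the primary granule gate at the right; 1 point per library (red KO label, blue WT label; circles list A, triangles list B), lines join a library. Iigp1 falls from 24.6 to 45.1 CPM in the stem gate to 1.04 to 4.54 CPM in the granule gate, Psmb8 rises, Ifi27l2a peaks in the monocyte-primed gate, and Ifit1 scatters in the Flt3 gate.

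The rest of the pathway was read from 2 lists. The signalling chain list held 46 symbols (interferons, receptors, kinases, Stat and Irf factors, inhibitors, nucleic acid sensors). Of these 44 were in the table, and 35 could be tested by label over all kept cells. The symbols not in it, Sting1 and Mb21d1, are other names of Tmem173 and Cgas, which were in it. Socs3 and Irf8 were higher in KO-labelled libraries and none was lower. Socs3, an inhibitor of cytokine signalling, stood at 30.0, 31.5 and 16.6 CPM against 10.6, 13.05, 12.3 and 8.91, without overlap (log2 fold change 1.22 ± 0.14, SE, adjusted p = 0.0107). It was called within the non-cycling stem (1.59), cycling stem (1.70), Flt3 (1.95) and primary granule (1.29) gates too. Irf8, a factor of monocyte and dendritic fate, had a log2 fold change of 1.15 (adjusted p = 0.0412) and was not called within any of the 6 gates. The receptor chain Ifnar1 stood at 31.3 ± 1.23 CPM (SD, n = 3) in KO and 31.9 ± 2.28 (SD, n = 4) in WT libraries, and Ifnar2 at 148 ± 23.6 and 133 ± 16.2. The interferon gamma receptor chain Ifngr2 stood at 29.4, 27.3 and 32.3 CPM in KO and 19.8, 16.6, 19.4 and 29.2 in WT libraries (log2 fold change 0.47, adjusted p = 0.12), and Ifngr1 at 90.6 ± 27.6 and 66.6 ± 27.5 (0.47, adjusted p = 0.315). Both overlapped over all libraries but not within list A.

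Of 61 other interferon-induced genes 59 were in the table and 58 were tested by label, of which 0 were called by edgeR and 12 had an unadjusted p below 0.05, beside 2861 of all 15149 genes. Between states, in the non-cycling stem gate 32 of 55 tested were higher and 8 lower, where 29.5% and 30.1% of all genes were called. In the granule gate 9 were higher and 36 lower of 55, where 31% and 31.2% were called. Ly6a, which encodes the Sca-1 protein that the sort selected on and is itself induced by interferon, was among them, with a log2 fold change of 1.34 in the stem gate and -1.67 in the granule gate. Mx1 and Mx2 were not analysed here.

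The summed share of the 29 genes gave 1 value per library. It was 10.2, 10.2 and 14.3 UMIs per 10000 in KO replicates 1 to 3 and 11.7, 9.12, 10.0 and 13.8 in WT replicates 1 to 4, or 11.5 ± 2.37 (SD, n = 3) and 11.2 ± 2.07 (SD, n = 4). The difference between labels was smaller than the spread between libraries of a label. Without Psmb8 and Psmb9 it was 5.96 ± 0.93 and 6.43 ± 0.52. So summed, the non-cycling stem gate had 8.05 ± 0.49 UMIs per 10000 (SD, n = 7) and lay above all kept cells in 7 of 7 libraries, and the primary granule gate had 4.79 ± 0.59 and lay below in 7 of 7. Of the tested gates, the Dntt, Flt3, cycling stem and monocyte-primed gates lay between, at 6.77, 6.78, 6.67 and 6.61. Some gates too small to test lay at or beyond these ends. The MHC class II high gate had 8.79 ± 2.61 (SD, n = 7), above all kept cells in 7 of 7 libraries, and the plasmacytoid gate 8.03 ± 3.42, above in 5 of 7. The neutrophil gate had 2.93 ± 0.88, above in 0 of 7. These gates held as few as 4, 1 and 5 cells in a library. With Psmb8 and Psmb9 included the stem and granule gates had 11.8 ± 1.77 and 10.9 ± 2.02, with overlapping ranges.

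By label, the share without Psmb8 and Psmb9 in the non-cycling stem gate was 8.37, 7.64 and 8.38 in KO and 8.68, 7.71, 7.33 and 8.22 in WT libraries, with overlapping groups. In the Dntt gate it was 7.60, 7.29 and 7.96 in KO and 5.96, 5.48, 5.72 and 7.36 in WT libraries. There the lowest KO library lay just under the highest WT library, the list B one. For the 10 antiviral genes Isg15, Ifit1, Ifit2, Ifit3, Rsad2, Usp18, Oasl2, Oas1a, Ifi44 and Irf7 alone, the Dntt gate had 1.41 ± 0.07 (SD, n = 3) in KO and 1.00 ± 0.16 (SD, n = 4) in WT libraries, without overlap. Over all kept cells the same sum was lower in KO libraries on average, at 0.85 ± 0.30 against 1.01 ± 0.13, with overlap, and in the non-cycling stem gate it was 1.47 ± 0.17 against 1.41 ± 0.20, with overlap. A summed score over genes chosen with results known was not tested. Other gene sets and gates were summed too, and how often such sums part the labels by chance was not estimated. In KO replicates 1 and 2 the Dntt gate held 113 and 87 cells. The Dntt gate held 3.68%, 5.04% and 9.23% of kept cells in KO and 17.6%, 17.2%, 17.2% and 16.8% in WT libraries.

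The last question was whether a few cells carried the signal. Those 10 antiviral genes were used to pick cells, and the other genes of the list to look at them. Cells were thinned to 3000 UMIs each, which left out between 45 and 169 shallower cells per library. Between 73.2% and 80.4% of cells in a library then had no UMI of the 10 genes. The top 1% of cells held between 13.01% and 21.1% of the UMIs of the 10 genes, at a mean of 0.271 to 0.407 UMIs per cell. Counts this sparse are uneven between cells by counting alone. The variance between cells over the mean, about 1 under counting alone, was 1.48 to 3.70 by library for the 10 genes. For Psmb8 and Psmb9 together it was 1.10 to 1.24. How much of the top cells' share comes from counting was not separated.

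Cells with at least 3 of the 10 genes detected numbered 336 of 23712. By library they were 23 of 2947 cells (0.78%, exact 95% interval 0.495% to 1.17%), 6 of 1563 (0.384%, 0.141% to 0.834%) and 106 of 6808 (1.56%, 1.28% to 1.88%) in KO replicates 1 to 3. In WT replicates 1 to 4 they were 22 of 1172 (1.88%, 1.18% to 2.83%), 8 of 1074 (0.745%, 0.322% to 1.46%), 11 of 1455 (0.756%, 0.378% to 1.35%) and 160 of 8693 (1.84%, 1.57% to 2.15%). The intervals cover counting error only. Both list B libraries and WT replicate 1 were high, and the labels overlapped. These cells held 5.21% to 26.2% of the UMIs of the 10 genes in a library. The cells are one end of a range: 1270 cells had at least 2 of the genes and 117 at least 4.

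The 17 other genes of the list apart from Psmb8 and Psmb9 were higher in the picked cells in each library. They took 13.5, 16.1, 23.6, 17.1, 24.2, 16.1 and 16.9 UMIs per 10000 there, in the order of libraries above, against 5.37, 5.16, 5.91, 5.69, 5.22, 5.43 and 6.12 in the remaining cells. The ratio was between 2.51 and 4.63. Psmb8 and Psmb9 together had a ratio between 0.593 and 1.24, on both sides of 1. The 59 other interferon-induced genes had a ratio between 1.38 and 1.94. Within the non-cycling stem gate alone, the ratio for the 17 genes was between 1.33 and 4.94, above 1 in 7 of 7 libraries. It rested on as few as 4 picked cells, in KO replicate 2, and the value of 4.94 on 6, in WT replicate 2.

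By gene, 9 of the 19 genes not used to pick cells were higher in the picked cells in 7 of 7 libraries and 12 in at least 6. Of the 59 other interferon-induced genes, 18 were higher in 7 of 7 libraries and 25 in at least 6. The share over all genes was not computed, and the picked cells differed from the rest in their makeup of states, so these counts have no background beside them. Iigp1 had the widest ratio of means at 12.1, and was higher in 7 of 7 libraries. Rtp4 followed at 7.21 (7 of 7), Zbp1 at 6.83 (6 of 7), Ddx58 at 4.49 (6 of 7) and Xaf1 at 3.87 (7 of 7). Psmb8 stood at 0.92, higher in 3 of 7 libraries. Gbp3, the gene called by label, stood at 1.56 (7 of 7).

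The picked cells were spread over many states. The non-cycling stem gate held 47.9% of them (161 cells) and 34.7% of all thinned cells. The Flt3 gate held 9.82% of them and 4.69% of cells, and the primary granule gate 5.36% of them and 18.9% of cells. These pooled shares rest mostly on the list B libraries, with 106 and 160 of the 336 cells. By library, the stem gate held 44.3% to 75% of picked cells and a larger share of them than of all cells in 7 of 7 libraries. The share of picked cells was larger than that of all cells in 6 of 7 libraries for the Flt3 gate and smaller in 6 of 7 for the granule gate, on as few as 6 picked cells in a library. Their median depth before thinning lay between 5001 and 8719.5 UMIs in a library, below that of the remaining cells in each library, so they were not the deepest cells. Doublets were not called. Without the 5% of cells with the most UMIs per library, 334 cells stayed and the mean ratio for the 17 genes was 3.25, against 3.28 with them.

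**Figure D5:**
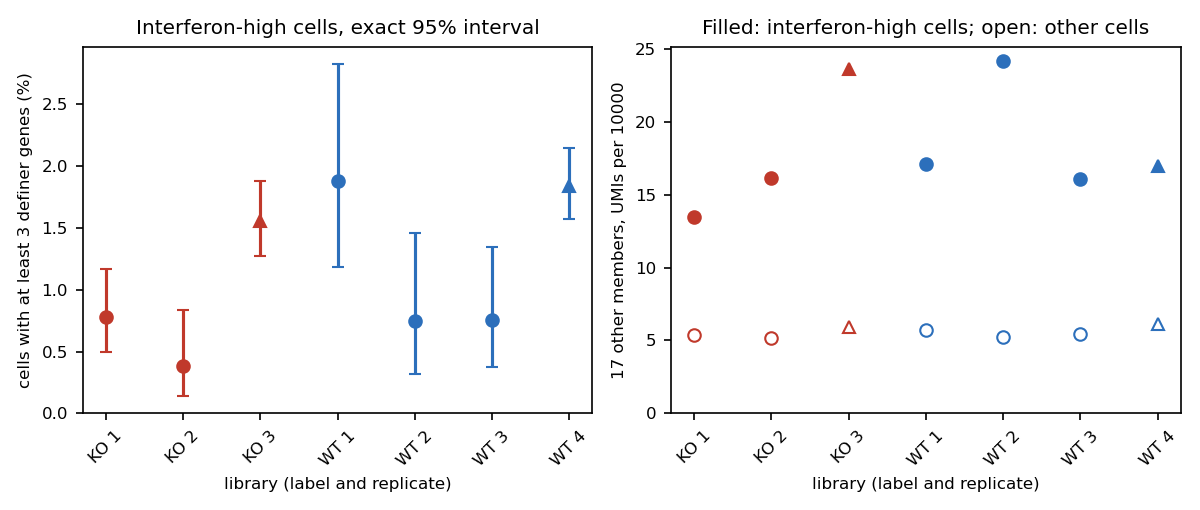
Left, share of cells (titled interferon-high) with at least 3 of 10 antiviral genes at 3000 UMIs per cell, with exact 95% intervals, by library; right, summed level of 17 other genes of the list in those cells (filled) and in the remaining cells (open). Shares run from 0.384% to 1.88%, and every filled point, 13.5 or more, lies above every open point, 6.12 or less.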

How the data were processed

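Single-cell RNA of 7 LSK libraries was analysed from the deposited 10x matrices, which hold raw UMI counts per gene and cell as the authors deposited them. Per the submitters' processing notes, Cell Ranger 7.0.0 and the build mm10 were used; Seurat 4.4.0 is named there without a role. Per the labels' protocols the libraries were made with a 3′ kit. Reads of genes with near-identical copies (Ifit3, Oas1a, Ifi27l2a, Trim30a, and the Gbp and Irgm families) may therefore not be told apart. Counts of these genes, low ones too, are uncertain to that extent. The other deposited columns, gene and barcode names, hold no measurement.

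Cells with at least 1000 UMIs, at least 500 genes and at most 10% mitochondrial UMIs were kept and placed, in a fixed order, in 16 marker gates. The 6 gates with at least 20 cells in every library were tested. Counts were summed per library and gate and tested with edgeR 4.0.16 (TMM, filterByExpr, robust quasi-likelihood F test, two-sided, Benjamini-Hochberg over all genes, threshold 0.05). Label fits had the barcode list as covariate, gate fits the library as block. DESeq2 1.42.0 was an alternative. The fits were also tested on simulated data.

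Members, gates and lists were chosen with earlier results of these data known. Genes named with values were the 10 with the highest mean CPM, those called by label, and per gate up to 3 called genes with the smallest p in each direction; Ddx58, Oas1a and other label values beyond these were chosen after their values were seen. No doublet caller was run. The alternatives added after seeing the data were list A alone within gates and fewer kinds of other cells.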

Additional observations from a re-analysis of the deposited data

Results flagged for a closer look

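In the 4 WT-labelled libraries, 33 values were looked at for a library far from the other 3 by Dixon's ratio, and 6 stood out. Chance flags about 1 in 20 such groups. In 5 of the 6 the library was WT replicate 4, the one WT library of barcode list B, whose share of ribosomal UMIs was 30.2%. Ifi47 stood at 68.24 CPM there and at 33.7 to 38.5 in the others. Rtp4 stood at 58.98 against 15.4 to 22.5, Ifi27l2a at 26.18 against 13.7 to 14.97 and Oas1a at 16.62 against 5.45 to 6.67. Parp14, a mono-ADP-ribosyltransferase, was low instead, at 19.71 against 31.2 to 32.9. KO replicate 3, the KO library of list B, was on the same side of its group for all 5 genes, with 71.3, 48.3, 25.2, 21.7 and 16.6 CPM in that order. The part that the list plays in these values was not tested apart from its use as a covariate. Iigp1 was low in WT replicate 2, at 10.91 CPM against 19.2 to 20.7.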

How the results depend on the processing

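The count of genes called by label over all kept cells, 1, became 0 with no list covariate, 4 by DESeq2, 4 with no gene filter, 3 in list A alone, 0 with equal cells and UMIs per library, 0 without mature and myeloid gates, and 0 to 3 with a library left out. In the primary granule gate, 0 became 1 by DESeq2 and 1 with no gene filter. Gate counts moved to 2 with no gene filter and 1 to 2 with a library left out (monocyte-primed), 4 to 9 with a library left out and 11 with fewer other cells (Dntt), and 3 to 11 with a library left out and 4 on thinned cells (cycling stem). In the Flt3 gate, 4 became 0 by DESeq2, 1 with no gene filter, 1 on thinned cells, 2 with fewer other cells and 0 to 4 with a library left out. Calls over all genes in these alternative fits are given only where stated above, so a moved count is not by itself a result about the list. Reversed without mature and myeloid gates were Ddx58 (0.02663) and Rtp4 (0.04082) by label, and, with fewer other cells, Psmb8 in the cycling stem gate (0.05193). Of 365 alternative values for 32 named results, 296 kept direction and side of the threshold, 50 lost the call, 16 gained one and 3 reversed; the cause was not tested. The share of picked cells, 1.13%, was 2.49% at 5000 UMIs, 4.685% with at least 2 and 0.3787% with at least 4 genes, and the ratio of 3.28 was 2.079 and 5.284 with the latter 2. The summed share difference (KO minus WT label, 0.37) ran from -0.994 to 1.26 with a library left out.

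Replicate numbers are shared by the labels. Deviations from group means correlated at 0.69, 0.89 and -0.59 for numbers 1, 2 and 3, and KO replicate 3 correlated best with WT replicate 4 (0.93). Residuals after both label and barcode list correlated at 0.387, 0.579 and 0.389. The 2 checks differ for number 3, whose libraries are of different lists, and the numbers were not taken as pairs on the first. With a replicate block, 8 genes were called by label over all kept cells, 5 in the primary granule gate and 1 in the Dntt gate. With the list covariate that fit has 1 residual degree of freedom, and its label effect rests on numbers 1 and 2 alone. Gates on thinned cells were not run for the primary granule and monocyte-primed gates, which then held fewer than 20 cells in a library. Low counts limit Ifit3 most, with 1 UMI in a library.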

Other observations

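Small gates of mature cells, each read in single libraries with no test, differed in which genes of the list were high. In the plasmacytoid dendritic gate of WT replicate 4 (88 cells) Bst2, a known marker of these cells in mice, had 469 CPM (exact Poisson 95% interval 428 to 514) against 104 in other cells. Ifi27l2a had 123 CPM (102 to 147) against 22.0 and Irf7 30.3 (20.4 to 43.2) against 16.3. Ifit1 had 0 UMIs there, with an upper bound of 3.72 CPM, against 6.75 in other cells. In the MHC class II high gate, whose marker genes are themselves induced by interferon gamma, Iigp1 had 36.7 CPM (26.4 to 49.6) against 11.3 in KO replicate 3 (107 cells) and 42.7 (36.7 to 49.5) against 17.1 in WT replicate 4 (360 cells). Gbp2 had 31.4 against 15.1 and 33.8 against 15.6 in the same libraries. Ifit1 had 34.9 CPM (24.96 to 47.6) against 7.19 in KO replicate 3 and 12.0 (8.90 to 15.8) against 6.42 in WT replicate 4. The intervals cover counting error only.

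Transcripts of the interferons themselves were nearly absent. Any UMI in kept cells was found for 7 of 21 ligand genes. Ifnb1 had 26 UMIs in 15 cells, 11 of these cells in the primary granule gate. Of the 11, 5 came from KO replicate 1, 5 from KO replicate 2 and 1 from WT replicate 3. That gate held 41.9%, 38.8% and 6.47% of kept cells in these libraries, and its cells were deep, with a median of 17746 UMIs. Whether Ifnb1 belongs to that state was not tested. Ifng had 20 UMIs in 17 cells, 1 of the cells in that gate. By library, Ifnb1 had 6, 15, 0, 0, 0, 5 and 0 UMIs and Ifng had 0, 1, 1, 0, 0, 0 and 18, in the order KO replicates 1 to 3 and WT replicates 1 to 4.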
